A study of Schizosaccharomyces pombe with 2 samples.

Results

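The 9 genes pps1, pis1, psd1, psd2, psd3, cho2, cho1, eki1 and ept1 of fission yeast (Schizosaccharomyces pombe) encode enzymes that attach or modify the serine, inositol, ethanolamine and choline headgroups of phospholipids. They were chosen by function and name and not by a measured value, although earlier results of these data were known. Each was represented by 1 of the 5057 gene probes of the array. Their transcripts were compared between strain ESY173, which lacks the transcriptional activator gene mga2 (mga2Δ), and strain KGY425, labelled wild type (WT). Cells of both strains were grown in log phase in complete YES medium and held for 1.5 h without oxygen in an anaerobic chamber, so no value gives the response to oxygen loss itself. The design text adds a deletion of sre1, which encodes the main sterol-responsive SREBP factor, to both genotypes, while the sample labels call the control WT. The sre1 probe gave no signal well above background in any of the 4 channels.

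Fission yeast makes its headgroups along connected routes. In the CDP-diacylglycerol route, phosphatidylserine is made from serine, decarboxylated to phosphatidylethanolamine and methylated stepwise to phosphatidylcholine, and phosphatidylinositol is made from inositol. In the Kennedy route, ethanolamine and choline are phosphorylated, activated with CTP and joined to diacylglycerol. Both routes draw on fatty acids, whose synthesis genes are known targets of Mga2. The study's title poses the question of lipid balance in the absence of mga2.

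RNA of 2 biological replicate pairs was hybridised to 2 two-colour Agilent arrays with the dyes swapped, mga2Δ in Cy5 on array 1 and in Cy3 on array 2. Each probe was spotted 3 times. Of the 54 readings of the members' spots over both arrays, 1 (a pis1 spot on array 2) was an outlier and was left out, and every other member spot was well above background in both strains. All 9 members could therefore be tested. Over all gene spots the median signal lay between 858 and 2322.5, against 18 to 62 at negative control spots, and no spot was saturated. The deleted gene itself had log2 ratios of −7.27 and −6.13; its mga2Δ signal was not well above background, so only a bound can be given, and the mga2 transcript was at least 85.0-fold lower. For this bound the mga2Δ level was taken, per array, as the higher of the probe's own signal and the dimmest signal that was well above background.

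Ratios are log2 of mga2Δ over WT after each array was centred on most of its genes, and each mean is over 2 arrays with the SD between them. Adjusted p-values come from limma over all 4964 tested genes, with Benjamini-Hochberg adjustment and a threshold of 0.05. Signals are normalized log2 spot intensities, which compare strains for 1 probe and not levels between genes. Each channel held RNA of a whole culture, so fewer cells expressing a gene and less RNA per cell cannot be told apart. Precision was limited by having 2 arrays: each gene had 1 residual degree of freedom, and the test leaned on a spread shared between genes.

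Of the 9 members, 2 fell in mga2Δ (eki1 and pps1), none rose and 7 did not pass the test. Over all tested genes 10.9% fell and 18.4% rose, 29.3% in all, so the members' share of 22.2% called was near the background. The median of the members' mean ratios was −0.05, against 0.00 over all tested genes, and it turned to 0.15 when ratios were centred on spike-in RNAs, which moved the median of all genes to 0.21. The lowest member was eki1 at −0.53 and the highest psd2 at 0.27. No member therefore differed as much as 2-fold between the strains in its mean.

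**Figure D1:**
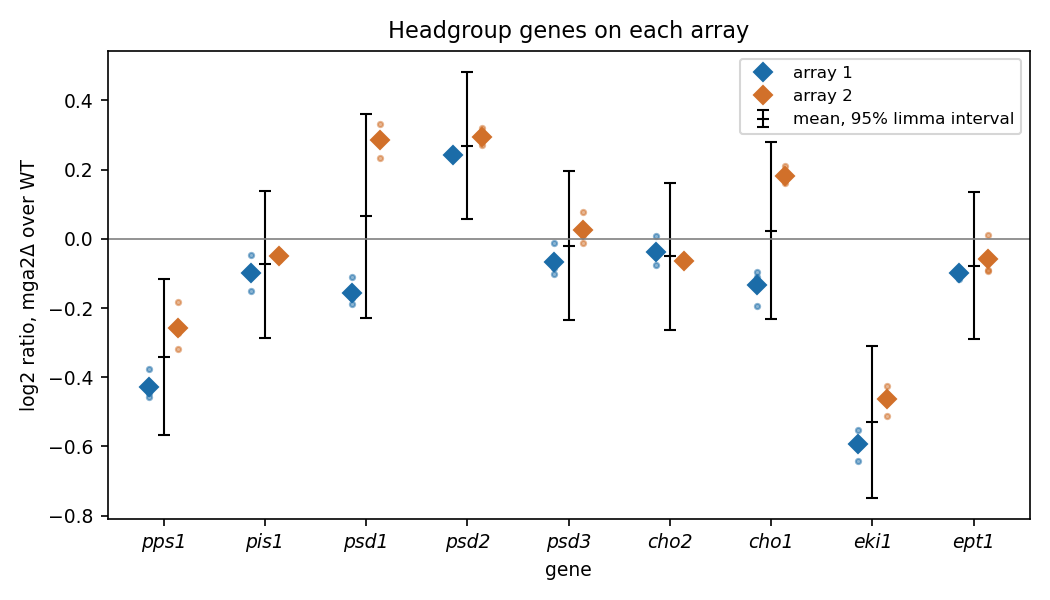
Log2 ratio of mga2Δ over WT (y axis) for each headgroup gene (x axis). Small dots are spots, diamonds are array means, and black ticks with bars are the mean over 2 arrays with its 95% limma interval; eki1 and pps1 lie below 0 on both arrays, psd2 lies above 0 on both, and psd1, psd3 and cho1 have opposite signs on the 2 arrays.

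The CDP-diacylglycerol enzymes are pps1, which makes phosphatidylserine from serine, and pis1, which makes phosphatidylinositol from inositol. The pps1 signal in WT was 8.64 on array 1 and 8.45 on array 2, and in mga2Δ it was 8.21 and 8.20. Both mga2Δ values were lower than both WT values. The log2 ratios were −0.43 and −0.26, and pps1 fell, with a mean of −0.34 ± 0.12 (SD, n = 2 arrays, limma adjusted p = 0.0363), or 0.789-fold. Its 6 spots all lay below 0, from −0.46 to −0.18. The pps1 call did not hold with spike-in centring (−0.14, adjusted p = 0.261), median centring (−0.29, adjusted p = 0.405) or 2.81 prior degrees of freedom in place of 5.62 (the smaller prior, adjusted p = 0.0916).

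The pis1 signal was 11.49 and 11.42 in WT and 11.39 and 11.37 in mga2Δ. These values did not overlap, but they lay close together, with log2 ratios of −0.10 and −0.05. The mean of −0.07 ± 0.03 did not pass (limma adjusted p = 0.572, n = 2 arrays), and the 95% interval of the log2 ratio ran from −0.29 to 0.14. Within each array the pps1 ratio was lower than the pis1 ratio, by −0.33 on array 1 and −0.21 on array 2, a difference that was not tested.

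The phosphatidylserine decarboxylases psd1, psd2 and psd3 turn phosphatidylserine into phosphatidylethanolamine; in fission yeast psd1 and psd2 are known as mitochondrial enzymes and psd3 as one of the Golgi and endosomes. None of the 3 passed the test, and they did not move alike. The psd2 signal was 11.22 and 11.34 in WT and 11.46 and 11.64 in mga2Δ. Both mga2Δ values were higher than both WT values. The log2 ratios of 0.24 and 0.30 gave a mean of 0.27 ± 0.04, or 1.21-fold, with a limma adjusted p of 0.0633 (n = 2 arrays). That value missed the threshold narrowly. The psd2 ratio passed in only 4 of 13 alternative settings. These were spike-in centring (0.47, adjusted p = 0.00673), scale normalization (adjusted p = 0.0436), eBayes trend and robust settings (adjusted p = 0.0383) and a threshold of 0.10, which the reported value already met. It did not pass in the others, among them the deposited ratios (0.17, limma adjusted p = 0.232), the scanner software's ratios (adjusted p = 0.161) and median centring. Over the 13 alternatives its adjusted p ran from 0.00673 to 0.384.

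The psd1 signal was 12.36 and 12.03 in WT and 12.21 and 12.31 in mga2Δ, so the strains overlapped. Its log2 ratio was −0.16 on array 1 and 0.29 on array 2, although the 3 spots of each array had the same sign. The mean of 0.06 ± 0.31 did not pass (limma adjusted p = 0.730, n = 2 arrays). Read as Cy5 over Cy3, the arrays had the same sign for psd1, with a mean of −0.22, the largest value in this direction among the 9 members. Its part in the result was not tested. For psd3 the signals were 9.25 and 9.21 in WT and 9.18 and 9.23 in mga2Δ. They overlapped, and the ratios of −0.07 and 0.03 gave a mean of −0.02 ± 0.07 (adjusted p = 0.887 by limma). The psd2 ratio exceeded that of psd3 by 0.31 and 0.27 on the 2 arrays, and that of psd1 by 0.40 and 0.01.

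**Figure D2:**
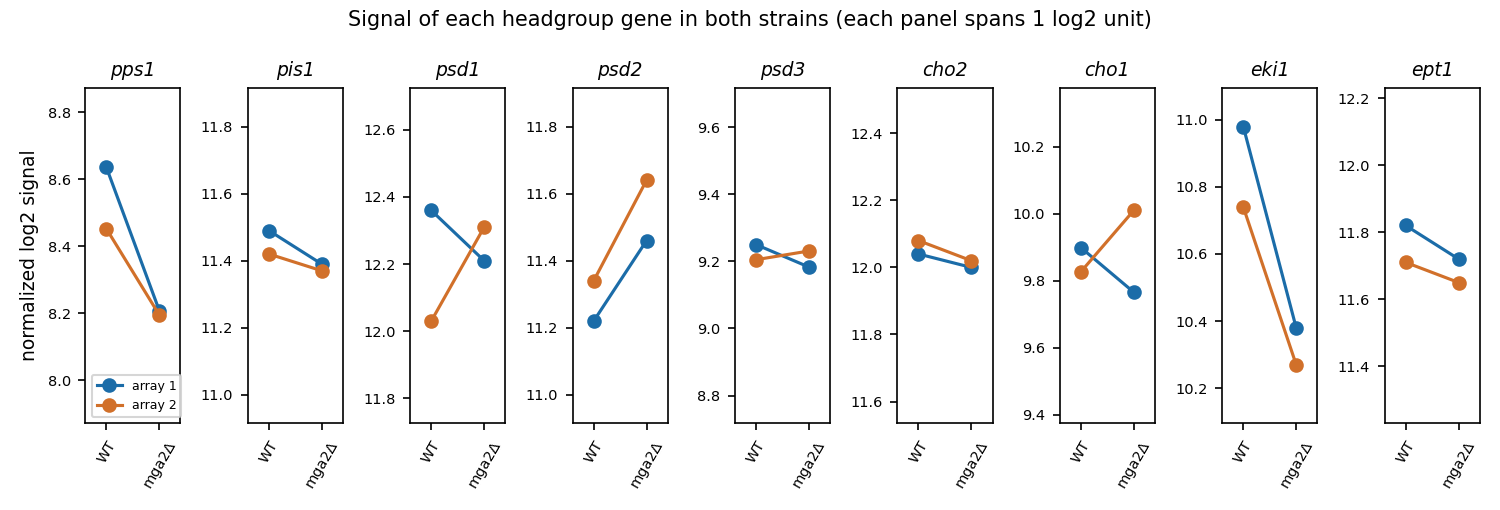
Normalized log2 signal (y axis, 1 log2 unit per panel) of each headgroup gene in WT and mga2Δ, with 1 line per array. The lines of eki1 and pps1 fall on both arrays, those of psd2 rise on both, and those of psd1, psd3 and cho1 cross.

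The methyltransferases cho2 and cho1 convert phosphatidylethanolamine to phosphatidylcholine, cho2 in the first methylation and cho1 in those that follow. Neither passed the test. The cho2 signal was 12.04 and 12.08 in WT and 12.00 and 12.02 in mga2Δ. The strains did not overlap, yet the ratios were only −0.04 and −0.06. The mean of −0.05 ± 0.02 (limma adjusted p = 0.703, n = 2 arrays) had a 95% interval from −0.26 to 0.16 on the log2 scale. The cho1 signal was 9.90 and 9.83 in WT and 9.77 and 10.01 in mga2Δ. As for psd1, the ratio was negative on array 1 (−0.13) and positive on array 2 (0.18), with a mean of 0.02 ± 0.22 (adjusted p = 0.889 by limma) and a mean of −0.16 as Cy5 over Cy3.

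In the Kennedy route, eki1 phosphorylates ethanolamine and choline, and ept1 joins the activated headgroup to diacylglycerol in the last step. The eki1 signal was 10.98 and 10.74 in WT and 10.38 and 10.27 in mga2Δ. Both mga2Δ values were lower than both WT values. The log2 ratios of −0.59 and −0.46 gave a mean of −0.53 ± 0.09 (SD, n = 2 arrays, limma adjusted p = 0.00723), so eki1 fell to 0.694-fold, with a 95% interval from 0.596-fold to 0.807-fold. All 6 eki1 spots lay between −0.64 and −0.42. Of the tested genes, 148 had a lower mean ratio than eki1, and 13.3% had a larger one in size. The eki1 call held in 12 of 13 alternative settings, and did not with median centring (−0.53, adjusted p = 0.149).

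The ept1 signal was 11.82 and 11.71 in WT and 11.72 and 11.65 in mga2Δ. The strains overlapped, and the ratios of −0.10 and −0.06 gave a mean of −0.08 ± 0.03, which did not pass (limma adjusted p = 0.545, n = 2 arrays). The 95% interval of its log2 ratio ran from −0.29 to 0.13. Within each array the eki1 ratio was lower than that of ept1, by −0.49 on array 1 and −0.41 on array 2, a difference between the first and last enzymes of the route that was not tested. The enzymes between them, pcy1, which activates phosphocholine with CTP, and ect1, which does so for phosphoethanolamine, had mean ratios of 0.04 ± 0.11 and −0.23 ± 0.04. Neither passed (limma adjusted p = 0.781 and 0.0975), and ect1 was below 0 on both arrays, at −0.20 and −0.26.

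Set among all tested genes, the headgroup genes other than eki1, pps1 and psd2 lay close to the centre. The mean ratios of pis1, psd1, psd3, cho2, cho1 and ept1 ran from −0.08 to 0.06, and between 76.6% and 93.8% of tested genes had a larger ratio in size than each of them. The median size of the ratio was 0.07 over the 9 members and 0.18 over all tested genes. All 6 were nearer to the median of all genes than the median gene was, with each of the 13 alternative settings. These 6 are the members left after those with the largest ratios in these data were set aside. Their nearness to the centre follows in part from that choice and is a description only. Spike-in centring and the settings that changed only the test or its threshold could not alter these distances. The 95% intervals of the 6 genes lay within 0.818-fold and 1.28-fold. Strains did not overlap in signal for 5 of the 9 members, against 69.2% of all tested genes, and the arrays had the same sign for 6 of 9, against 77.7%.

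**Figure D3:**
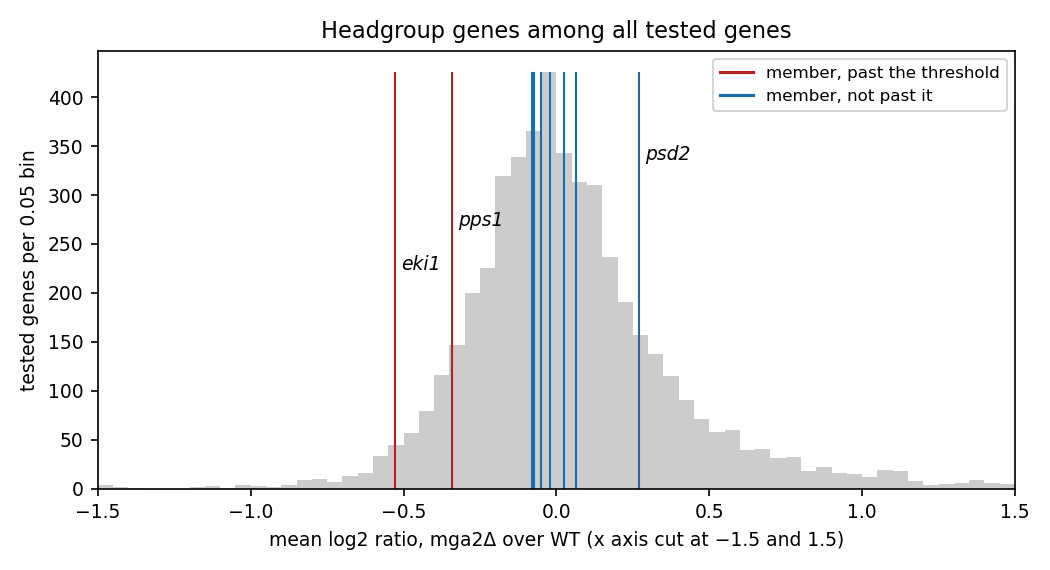
Number of tested genes per 0.05 bin (y axis) by mean log2 ratio of mga2Δ over WT (x axis), with a line at each headgroup gene; 139 genes lie outside the axis limits of −1.5 and 1.5. The lines of eki1 and pps1, which passed the test, lie in the left flank, psd2 lies in the right flank, and the other 6 stand near the peak.

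The direction of eki1, pps1 and psd2 was the same in all 13 alternative settings. In the settings that changed only the test, its threshold or the probe filter, these ratios were as reported and could not change direction. Over the 13 settings the mean ratio ran from −0.64 to −0.33 for eki1, from −0.54 to −0.14 for pps1 and from 0.17 to 0.47 for psd2. The other 6 members each changed sign in at least 1 setting and passed the test in none. With spike-in centring 4 of them (pis1, psd3, cho2 and ept1) turned from below to above 0, which left 7 members above 0 and 2 below. With the authors' deposited ratios 8 members were below 0, and the median of all genes stood at −0.10.

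**Figure D4:**
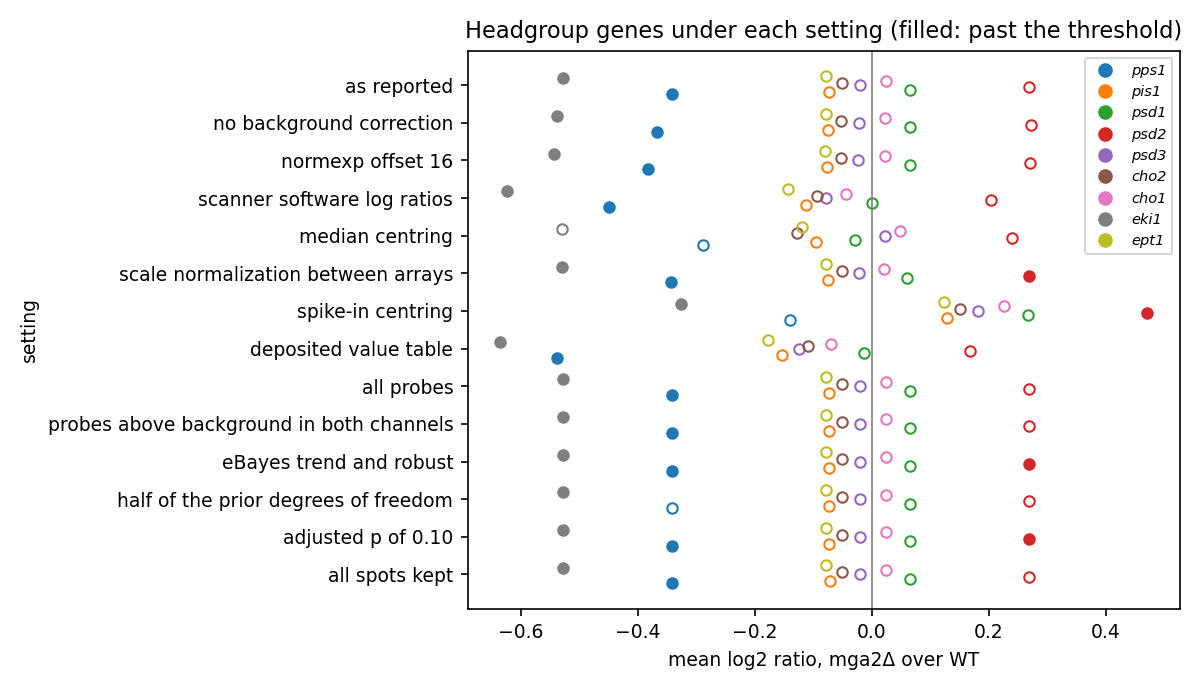
Mean log2 ratio of mga2Δ over WT (x axis) for each headgroup gene (colours) in each setting (y axis); filled circles passed the test in that setting. The eki1 and pps1 circles stay left of 0 and psd2 right of 0 in every setting, while the circles near 0 shift with the centring and cross it, most of all with spike-in centring.

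Other genes of headgroup supply and phospholipid metabolism were taken from a list of 28 genes fixed by function, with earlier results of these data known. From this list 25 genes had a probe and all 25 were tested. Of these, 6 rose and 2 fell, 32.0% against 29.3% of all tested genes, and the median of their mean ratios was 0.05. In precursor supply, both genes of the inositol transporter family rose: itr1 had ratios of 0.34 and 0.37 (mean 0.35 ± 0.02, limma adjusted p = 0.0267, n = 2 arrays) and itr2 had 0.21 and 0.54 (mean 0.37 ± 0.23, adjusted p = 0.0438). Inositol is the substrate of pis1, whose own ratio did not pass. Neither transporter call held with the deposited ratios (0.29 and 0.31), the scanner software's ratios, median centring or the smaller prior.

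Among genes that supply the methyl donor AdoMet used by cho2 and cho1, met26, methionine synthase, fell, with ratios of −0.71 and −0.30 (mean −0.50 ± 0.29, limma adjusted p = 0.0224, n = 2 arrays). The AdoMet synthetase gene sam1 had ratios of −0.38 and 0.08, which differ in sign, and did not pass (adjusted p = 0.405). The met26 call did not hold with spike-in centring (−0.30), the smaller prior, or median centring, where the ratio was larger in size (−1.07, adjusted p = 0.159). In the cardiolipin branch, which starts from the same CDP-diacylglycerol as pps1 and pis1, none of pgs1 (0.07 ± 0.17), gep4 (0.17 ± 0.27) and crd1 (0.09 ± 0.15) passed, and each had opposite signs on the 2 arrays. With spike-in centring gep4 and crd1 passed, at adjusted p = 0.0389 and 0.0497 by limma.

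Of 9 genes of phosphoinositide metabolism, which starts from the pis1 product phosphatidylinositol, 1 rose and none fell. That is 11.1% called, against 29.3% of all tested genes, a share that was not tested. The phosphatidylinositol 3-kinase gene pik3 had ratios of 0.44 and 0.52 (mean 0.48 ± 0.05, limma adjusted p = 0.00945, n = 2 arrays), a call that held in 12 of 13 alternative settings and not with median centring (adjusted p = 0.158). The Sec14-type transfer protein gene spo20 had ratios of −0.47 and −0.20 and narrowly missed the threshold (adjusted p = 0.0506). It passed in 8 of the 13 settings, always as lowered. The remaining 7 genes had mean ratios from −0.08 to 0.22.

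Phospholipase and glycerophosphodiesterase genes moved in both directions, with 3 raised and 1 lowered of 7 tested. That is 57.1% called, against 29.3% of all tested genes (18.4% raised and 10.9% lowered). The share rests on 7 genes and was not tested. Raised were plb3, a phospholipase B (mean 0.60 ± 0.25, limma adjusted p = 0.00899, n = 2 arrays), gde1, a glycerophosphodiester phosphodiesterase (0.39 ± 0.20, adjusted p = 0.0336), and pld1, a phospholipase D (0.34 ± 0.05, adjusted p = 0.0305). Lowered was plb2, another phospholipase B (−0.42 ± 0.30, adjusted p = 0.041). These 2 genes of the same phospholipase family passed in opposite directions, at ratios of 0.43 and 0.78 for plb3 and −0.63 and −0.21 for plb2. The plb2 call did not hold with spike-in centring (−0.22), median centring or the smaller prior, and that of plb3 did not with median centring or the smaller prior. The gde1 and pld1 calls failed in these last settings and with the deposited ratios, and pld1 also with the scanner software's ratios.

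**Figure D5:**
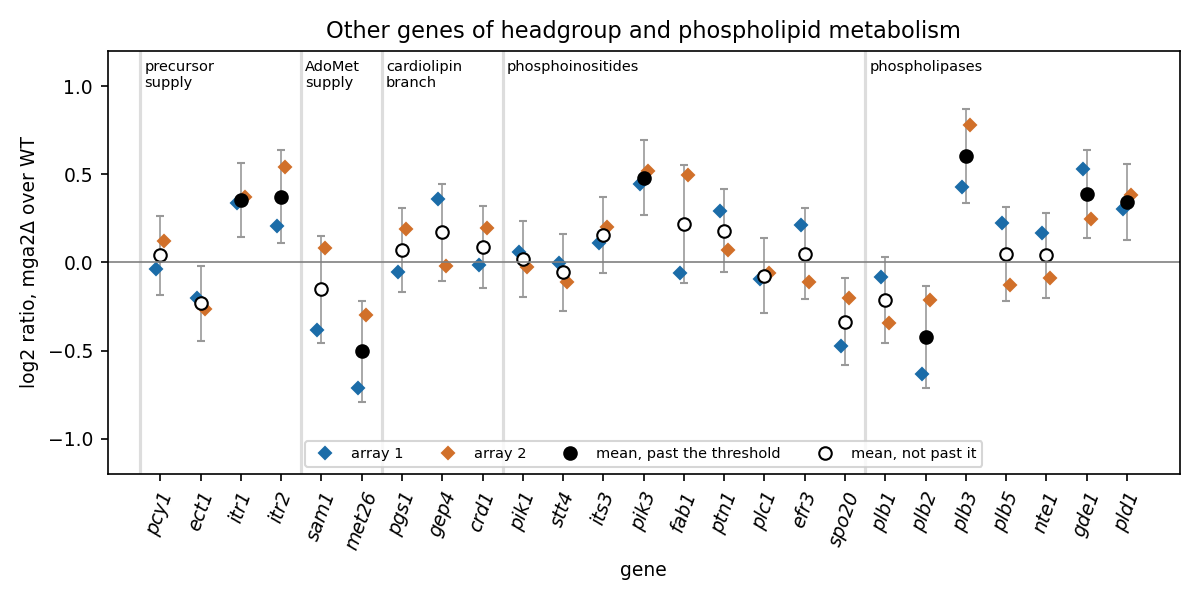
Log2 ratio of mga2Δ over WT (y axis) for the other genes of headgroup and phospholipid metabolism (x axis), grouped by function. Diamonds are arrays, circles are means with the 95% limma interval, and filled circles passed the test: itr1, itr2, pik3, plb3, gde1 and pld1 above 0, met26 and plb2 below 0.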

How the data were processed

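Per the labels' protocols, oligo-dT primed amplification and cyanine labelling started from 400 ng of total RNA, with spike-in RNAs added beforehand. Per the file headers, spot intensity was extracted with Agilent Feature Extraction 10.5.1.1. The deposited scanner tables hold median spot and local background intensity, a processed intensity, and a log10 ratio (Cy5 to Cy3). A further table deposited by the authors holds 1 log2 ratio per probe and array. Its direction on both arrays, found by comparison with the scanner ratios, is mga2Δ over WT; its columns have a mean of 0 and medians of −0.0782 and −0.115, and how it was normalized is not stated in the sources. Partek is named in the submitters' processing notes.

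Median intensities were corrected with normexp (offset 50) and loess in limma 3.58.1 (R 4.3.3), with control and outlier spots at weight 0. Outlier spots were dropped (3.57% and 3.36%), a probe's spots were averaged, and array 2 was turned in sign. A probe entered the test with 2 or more spots well above background in at least 1 channel of each array. The mean ratio was tested against 0 with lmFit and eBayes, two-sided (prior degrees of freedom 5.62). Channel signals came from loess followed by Aquantile normalization. The arrays shared 1 slide, so slide could not be a block. The steps were tested on simulated data for recovery of 2-fold changes in brighter probes. Such changes are larger than any mean ratio of the members and listed genes. Python 3.11.15, pandas 2.3.3 and matplotlib 3.10.9 made the tables and figures.

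Probes were named through RefSeq assembly ASM294v3 (5021 by locus tag, 3 by alias, 33 unmatched). Listed pct1 was read as pcy1 and vps34 as pik3; sah1 and plb6 had no match and plb4 no probe. Probe sequences were not used here, so cross-hybridisation between related genes was not checked. Text names all members, listed genes past the threshold and the 2 largest ratios per function group; pcy1, ect1 and pgs1 were added for their role. Members, lists and alternatives were chosen with earlier results of these data known. The alternatives were no background correction, offset 16, scanner software ratios, median centring, scale normalization, spike-in centring, the deposited table, all probes, a filter on both channels, eBayes trend and robust, 2.81 prior degrees of freedom, an adjusted p of 0.10, all spots kept, and each array alone.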

Additional observations from a re-analysis of the deposited data

How the results depend on the processing

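Under the 13 alternatives with a test, 109 of 117 member values kept their side of the threshold, 4 calls were lost, 4 were gained and no called value reversed. The threshold of 0.10 could only add calls. The lost calls were pps1 with median centring, spike-in centring and the smaller prior, and eki1 with median centring; the gained ones were all psd2. Counts are given as raised and lowered, first over the members (0 and 2 as reported), then over the other listed genes (6 and 2), then over all tested genes (915 and 541). They were 0 and 0, 0 and 0, and 146 and 26 with median centring, 1 and 1, 11 and 0, and 1942 and 186 with spike-in centring, 0 and 1, 1 and 0, and 493 and 176 with the smaller prior, and 0 and 2, 2 and 4, and 750 and 1138 with the authors' deposited log2 ratios. They were 0 and 2, 3 and 3, and 886 and 812 with the scanner software's ratios, and 1 and 2, 6 and 4, and 1138 and 814 at an adjusted p of 0.10. Members raised numbered 1 with scale normalization and 1 with eBayes trend and robust settings. Spike-in centring moved every ratio by the same amount. The smaller prior left the ratios as they were and changed the weight of the shared spread and the degrees of freedom of the test. For the other settings the cause was not tested.

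Each array alone gave eki1 ratios of −0.59 and −0.46, pps1 −0.43 and −0.26, and psd2 0.24 and 0.30, with no test, since no residual degree of freedom remained; counts could not be made. The reported test is already paired, because each array gives the strains as a ratio. All arrays form 1 group, so no further pairing was possible. Precision rests on 2 arrays: the smallest standard error of a member's log2 ratio was 0.088 and the largest 0.12.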

Other observations

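The nearest protein-coding genes on each side of the 9 headgroup genes were read from the gene order of the reference annotation. Non-coding genes were left out of that order. Of 18 such flanking genes 17 were tested, and 3 had risen and 3 had fallen, 35.3% against 29.3% of all tested genes. Beside eki1, msa1 also fell (mean log2 ratio −0.56, limma adjusted p = 0.00741), while mba1 on the other side stood at −0.02 (adjusted p = 0.907). The tested neighbour of pps1, sqs2, stood at −0.01 (limma adjusted p = 0.964). The other called neighbours lay beside members that did not pass. Raised were rem1 (0.33) beside psd1, sec9 (0.39) beside cho2 and dak1 (0.76) beside ept1. Lowered were SPBC1E8.02 (−0.71) beside psd1 and esf1 (−0.44) beside cho1. These neighbours were named after their values were seen.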
